A study of Arabidopsis thaliana with 12 samples.

Results

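The mTERF family of Arabidopsis thaliana was followed through AT5G55580 (mTERF9) and 7 further loci, 8 genes of the 648 that were measured on a probe with a single gene. The members were to be found by the words "mitochondrial transcription termination factor" or "mTERF" in a gene's annotation. The platform annotation and the RefSeq gene table hold symbols and synonyms but no descriptions, and by these only AT5G55580 is both named mTERF and on a single-gene probe. AT1G61990, AT1G62010, AT1G62150, AT1G79220, AT3G18870, AT3G46950 and AT4G09620 were added from a list of 35 loci of the published family, drawn up by general knowledge. No gene name or separate role is given to these 7 loci here, since the tables give none. All 35 loci were in the RefSeq table. A further 11 lay only on probes shared by several genes and 16 on no probe with an annotation entry, so 8 of 35 could be read by gene.

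mTERF proteins take their name from a human mitochondrial factor that ends transcription, and they bind nucleic acids through a chain of helical repeats. In plants the family is large, encoded in the nucleus, and mostly sent to chloroplasts or mitochondria, where members act in transcription, intron splicing and the maturation of ribosomal RNA. AT5G55580 encodes a chloroplast member, known for its part in the assembly of chloroplast ribosomes. STN7 is the thylakoid kinase that phosphorylates light-harvesting proteins in state transitions.

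Total RNA was measured on 1-channel arrays in 6 wild-type (WT) samples and 6 samples of the stn7 mutant, going by their titles, all of the ecotype Columbia 0. The labels give no age, tissue, growth condition or allele. Of the 6 samples titled stn7, only sample 1 had a source name that says mutant, and the other 5 had that of the WT. Samples were grouped by title. No probe with an annotation entry carries STN7, so the mutated gene could not check the titles. Consecutive samples (1 with 2, 3 with 4, 5 with 6) had like deviations within both groups. They were averaged, and the precision is limited by the 3 averaged samples that each group then held. Whether samples came from different plants is not in the labels, so the p-values reflect a spread that may be technical. In tissue RNA, fewer cells of a type and less RNA per cell cannot be told apart.

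AT5G55580 was higher in stn7 than in WT, and of the 8 mTERF genes it alone passed an adjusted p of 0.05. As deposited, on a relative intensity scale, its value in the 6 WT samples ran from 0.445 through a median of 0.471 to 0.512. In the 6 stn7 samples it ran from 0.730 through a median of 0.947 to 0.975. Every stn7 sample thus lay above every WT sample, as either group did over the other in 22.7% of all probes, and sample 1, with the mutant source name, was at 0.975. Its log2 normalized level was -0.96, -1.07 and -0.92 in the averaged WT samples and -0.04, -0.35 and -0.13 in the averaged stn7 samples. The difference was 0.81 on the log2 scale (SE 0.15, n = 3 per group, 95% interval 0.46 to 1.15), a 1.75-fold higher mean level. The limma test across 3248 features gave an adjusted p of 0.0188.

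The call of 1 gene in 8, or 12.5%, has to be read against the array. In the same fit 15.2% of all features were called, 6.53% higher and 8.68% lower in stn7, and 16.7% of the 648 features with a single gene. After normalization the 12 samples of the groups stood apart in 22% of features and the averaged samples in 38.7%, against 2 of the 8 mTERF genes for both. The share of mTERF genes called was therefore no higher than that of features in general.

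**Figure D1:**
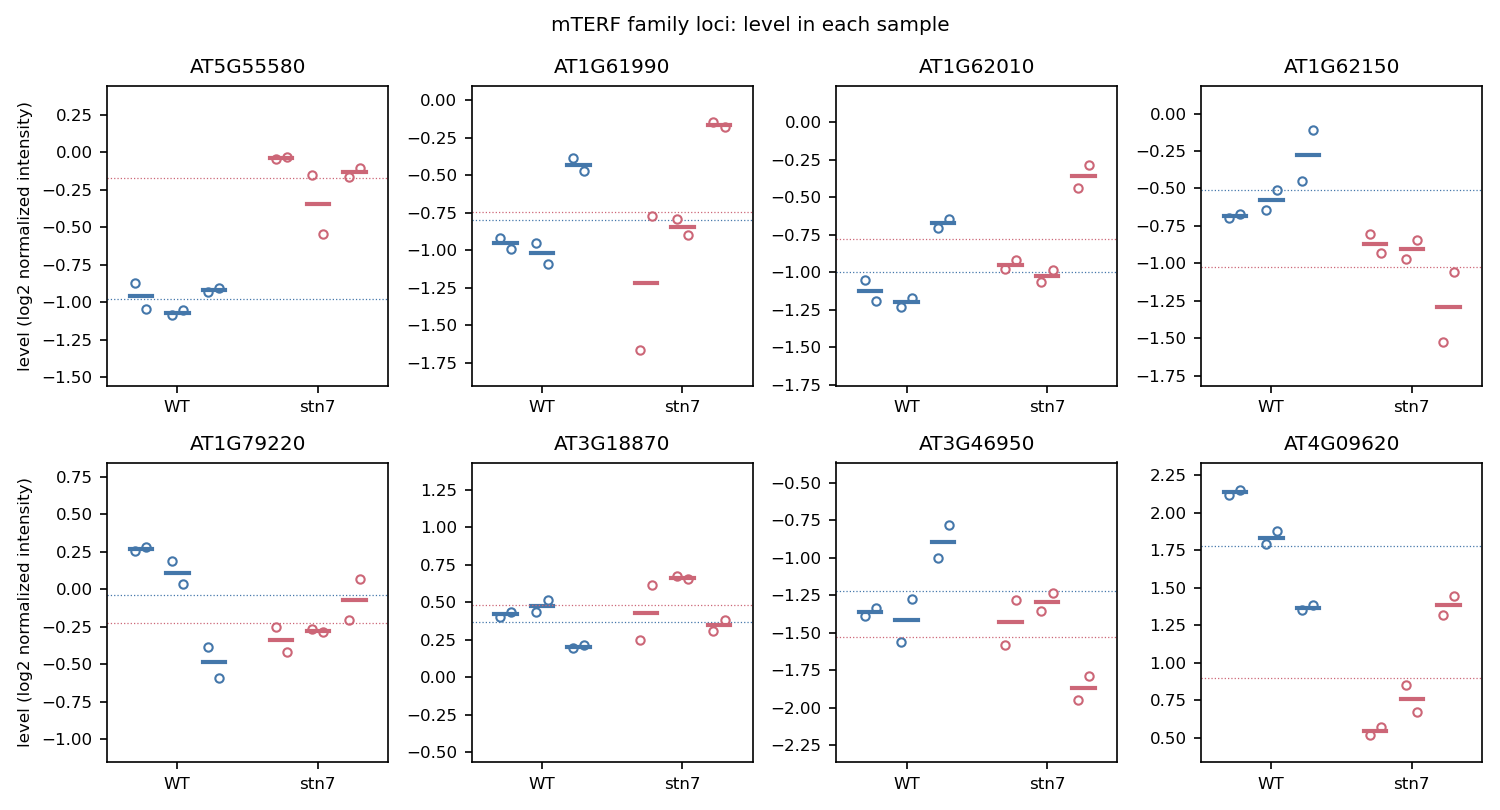
Log2 normalized intensity (y axis) of the 8 mTERF loci in WT (blue) and stn7 (red) samples, with open circles for single samples in the order 1 to 6, bars for averaged pairs of samples and dotted lines for the group means; all panels span the same range of log2 units. In AT5G55580 the stn7 samples all lie above the WT samples, and in AT1G62150 all lie below, while in the other 6 loci the groups overlap.

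The size of this difference, and the call, changed when the position of the probe in the numbering of the array was taken into account. Differences between stn7 and WT followed the probe number in 48 sets that recur along a fixed cycle of numbers. The set of AT5G55580 held 64 features with a median difference of 0.44 log2. Of these 64, 58 had a positive difference, 16 were called higher and 0 lower, and 6 had a larger difference than AT5G55580. With each sample centred within the sets, the difference of AT5G55580 was 0.37 log2 (SE 0.14, 95% interval 0.042 to 0.70), and it no longer passed (limma, adjusted p = 0.15). After this centring its level in the averaged samples was -0.77, -0.91 and -0.62 in WT and -0.42, -0.50 and -0.27 in stn7. The averaged stn7 samples still lay above those of WT, as the averaged groups stood apart in 33.8% of all features on this scale, but single samples overlapped. Sets started at 5 other numbers gave between 0.36 and 0.42 log2, with adjusted p between 0.111 and 0.163.

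Leaving out any 1 of the 12 samples kept AT5G55580 past the threshold, with differences between 0.74 and 0.87 log2 (limma, adjusted p between 0.0140 and 0.0357). Without an averaged pair the differences were similar, 0.74 to 0.89 log2, but the gene missed the threshold in 3 of 6 cases. These were the fits without WT samples 1 and 2 (adjusted p = 0.0722), WT samples 3 and 4 (adjusted p = 0.0699) and stn7 samples 1 and 2 (adjusted p = 0.0620). They called 45, 30 and 4 features over the whole array, against 494 as reported. The fits without WT samples 5 and 6, stn7 samples 3 and 4, and stn7 samples 5 and 6 called 272, 284 and 218. With stn7 sample 1 alone against the WT, under the assumption that it varies like the WT samples, the difference was 0.93 log2 and the adjusted p was 0.0740. The direction of AT5G55580 did not depend on the scaling, at 0.96 log2 without normalization and 0.72 log2 with arrays centred on their median, and it passed with both.

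**Figure D2:**
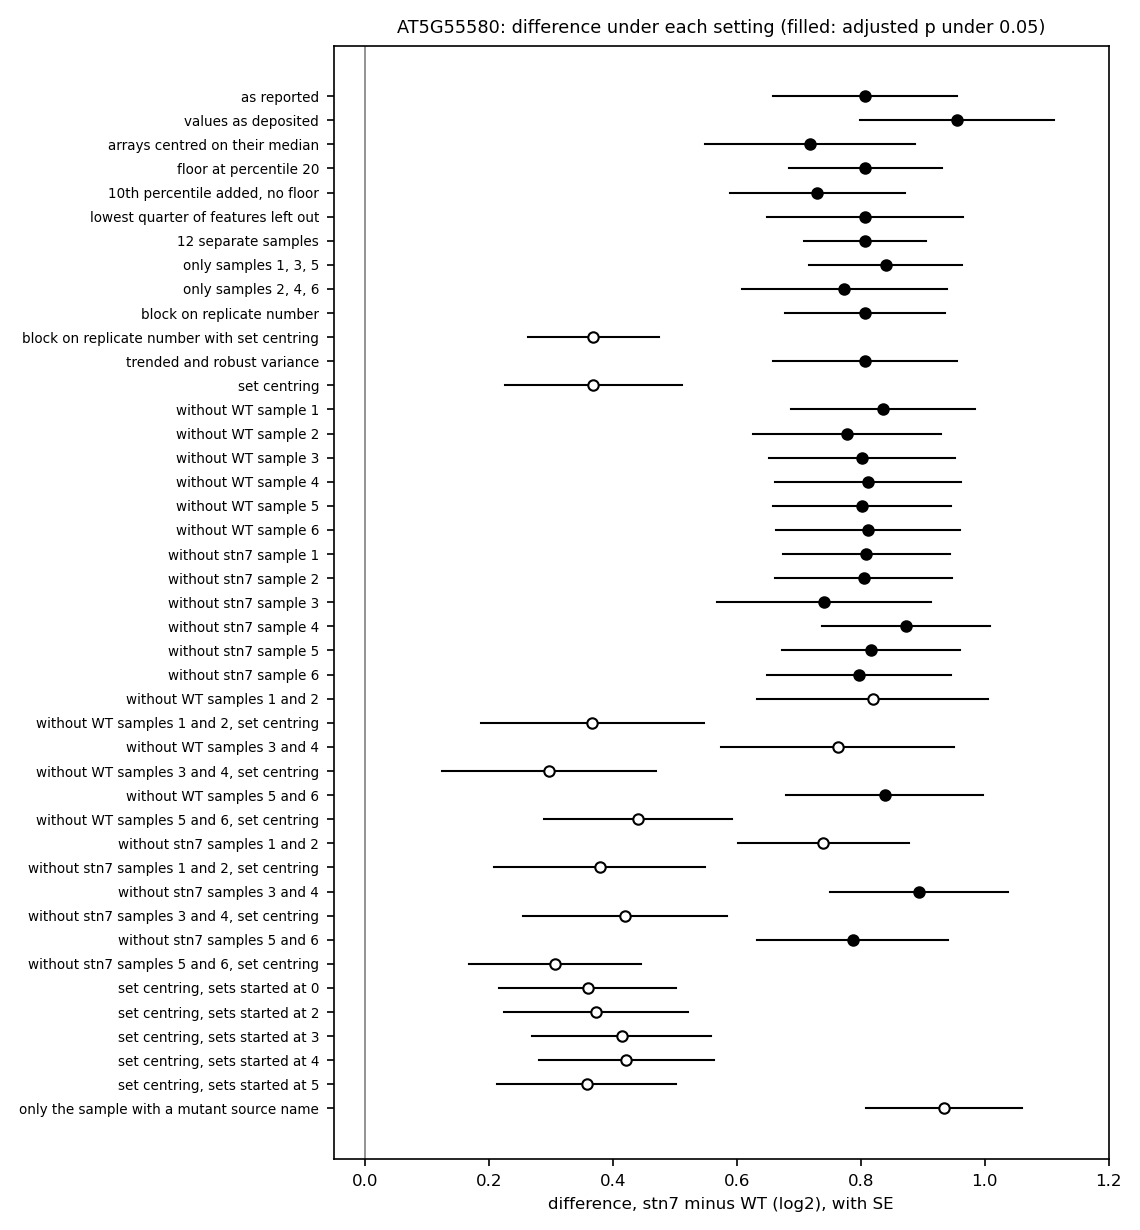
Difference of AT5G55580 between stn7 and WT (x axis, log2, with SE) under each setting (y axis), with filled circles where limma's adjusted p was under 0.05. The differences lie near 0.81 log2 in most settings and between 0.30 and 0.44 log2 in all settings with set centring, where none is filled.

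A second probe carried AT5G55580 together with another gene of the family, so its signal cannot be assigned to either. On this probe the deposited values ran from 0.277 through a median of 0.311 to 0.389 in WT and from 0.330 through 0.418 to 0.435 in stn7. The groups overlapped, and after normalization the difference was 0.09 log2 (SE 0.15, 95% interval -0.27 to 0.45, adjusted p = 0.728 in limma). Without normalization it was 0.34 log2 (adjusted p = 0.196 in limma), against 0.96 log2 for the single-gene probe. Whether the differences of both probes differ from each other was not tested. After set centring both probes came closer, at 0.37 log2 for the single-gene probe and 0.32 log2 for the shared one (adjusted p = 0.249).

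AT4G09620 had the largest fall in value of the 8 genes, without passing the test. Its deposited values ran from 2.64 through a median of 3.69 to 4.65 in WT and from 1.39 through 1.70 to 2.73 in stn7. The log2 levels of the averaged samples were 2.14, 1.83 and 1.36 in WT and 0.54, 0.76 and 1.38 in stn7, so the third stn7 value lay just above the lowest of WT. The difference was -0.88 log2 (SE 0.28, 95% interval -1.53 to -0.24, adjusted p = 0.0709 in limma), or a 1.85-fold lower mean level. It passed with arrays centred on their median (-1.18 log2, adjusted p = 0.0230), with the dimmest features left out (adjusted p = 0.0428) and with 12 separate samples (adjusted p = 0.00336). The fit with 12 separate samples takes consecutive samples as independent, though their deviations were alike, so its p-value overstates the evidence. That fit called 1283 features, against 494 as reported. The probe of AT4G09620 stands in the set with the lowest median of all 48, at -0.62 log2, where 26 of 70 features were called lower and 0 higher. After set centring its difference was -0.24 log2 (95% interval -0.77 to 0.30, adjusted p = 0.562). Sets started at 5 other numbers gave between -0.50 and -0.30 log2, with adjusted p from 0.157 to 0.458. With set centring and an averaged pair left out the difference ran from -0.06 log2 (without stn7 samples 1 and 2) to -0.51 log2 (without stn7 samples 5 and 6, adjusted p = 0.0842).

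AT1G62150 was the other locus whose 12 normalized values separated by group. Its log2 level was -0.68, -0.58 and -0.28 in the averaged WT samples and -0.87, -0.91 and -1.29 in those of stn7. The difference of -0.51 log2 (SE 0.18, 95% interval -0.94 to -0.08) missed the threshold, with an adjusted p of 0.103 in limma. As deposited, its WT values of 0.576 to 0.858 overlapped with the stn7 values of 0.399 to 0.604. The set of its probe had a median near the middle, at -0.14 log2, and after centring the difference was -0.37 log2 (adjusted p = 0.157). The 12 centred values still separated, as they did in 15.7% of features. Of 42 alternatives it passed in 1, that with 12 separate samples (adjusted p = 0.0101), which takes consecutive samples as independent.

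In AT1G79220 the direction itself turned with this centring. Its log2 level was 0.27, 0.11 and -0.49 in the averaged WT samples and -0.34, -0.28 and -0.07 in those of stn7, and the groups overlapped. The difference was -0.19 log2 (SE 0.22, 95% interval -0.70 to 0.32, adjusted p = 0.589 in limma). The probe stands in the set with the second lowest median, at -0.54 log2, and after set centring the difference was 0.39 log2 (SE 0.13, adjusted p = 0.115). All 12 centred values separated, with stn7 higher, as either group did over the other in 15.7% of all features on this scale. This too rested on how the sets were cut, since sets started at 5 other numbers gave between -0.28 and 0.34 log2.

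The other 4 loci did not pass in any setting run. AT1G61990 differed by 0.06 log2 (95% interval -0.62 to 0.74), AT1G62010 by 0.22 (-0.32 to 0.76), AT3G18870 by 0.11 (-0.25 to 0.48) and AT3G46950 by -0.31 (-0.81 to 0.20). These intervals hold changes in either direction, so the data do not show that these loci were at the same level in both groups. After set centring they differed by 0.23, 0.45, -0.09 and -0.21 log2, with adjusted p between 0.193 and 0.732. AT1G61990 and AT3G18870 changed sign with arrays centred on their median, at -0.03 and -0.12 log2.

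**Figure D3:**
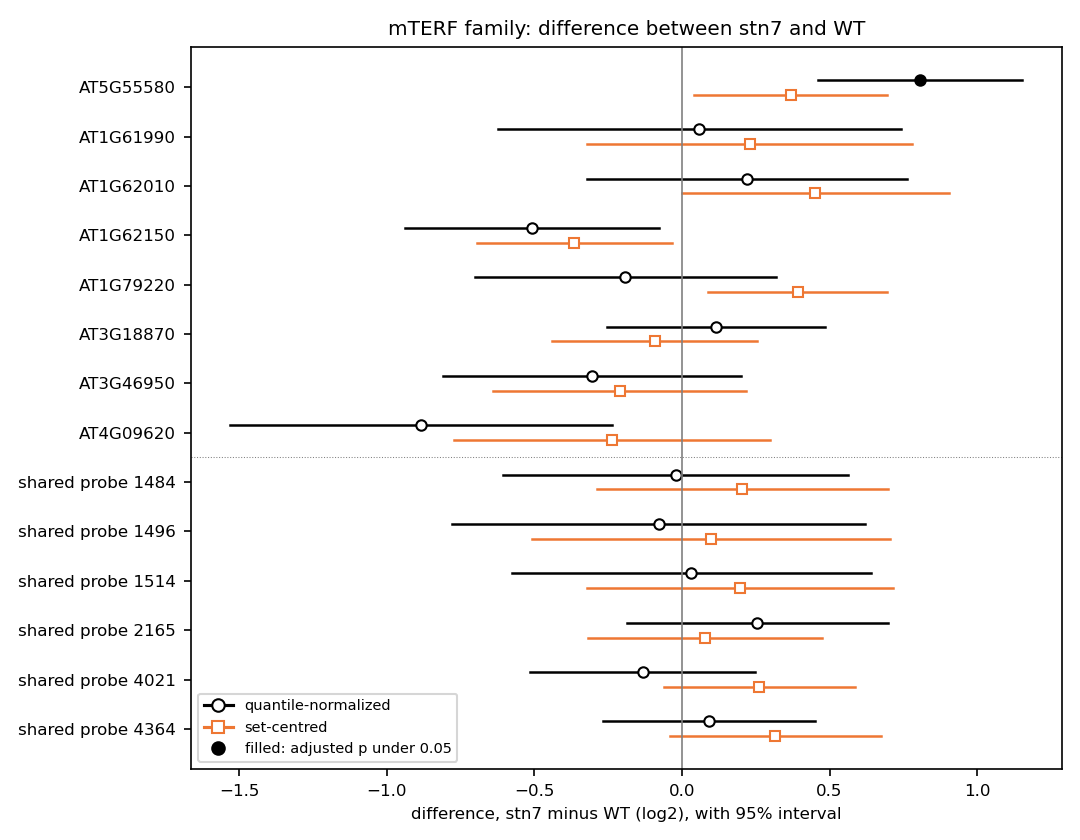
Difference between stn7 and WT (x axis, log2, with the 95% interval of limma) for the 8 mTERF loci and the 6 shared probes, before (black) and after (orange) set centring, with filled symbols for an adjusted p under 0.05. AT5G55580 before centring is the only filled symbol, and the range of the 8 loci narrows from -0.88 to 0.81 before centring to -0.37 to 0.45 after it.

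Over the 8 loci 4 differences were positive and 4 negative, with a median of -0.07 log2, against 0.05 log2 over all 3248 features. In the deposited values these medians were 0.02 and 0.19 log2, and with arrays centred on their median -0.22 and -0.03 log2. At an unadjusted p under 0.05, 3 of the 8 passed, against 32.4% of features. After set centring 0 of 8 passed the adjusted threshold in limma, against 5.67% of features, and 4 passed at an unadjusted p under 0.05, against 25.9%. The range between the lowest and the highest difference went from 1.69 to 0.82 log2 with the centring. The 2 loci at its ends, AT4G09620 and AT5G55580, stood in sets whose medians had the same sign as their differences. So did AT1G62150, AT1G79220, AT3G18870 and AT3G46950, but not AT1G61990 and AT1G62010. A set median takes the sign of most of its own features, the locus included, so a shared sign is the usual case. Neither this share nor the change in range was computed over all features.

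**Figure D4:**
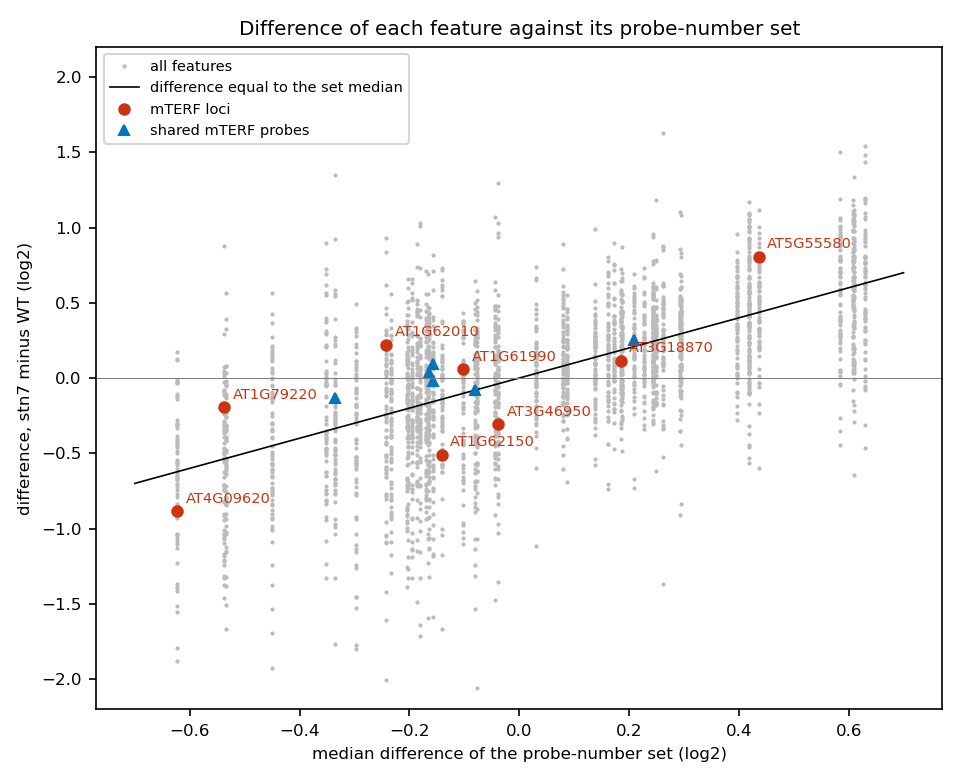
Difference of each feature between stn7 and WT (y axis, log2) against the median difference of its probe-number set (x axis, log2), with mTERF loci as red circles, shared mTERF probes as blue triangles and a line where both are equal; 5 features outside the y axis are not drawn. AT5G55580 (set median 0.44) and AT4G09620 (set median -0.62) lie near opposite ends of the x axis, and AT1G79220 lies above the line although its difference is below 0.

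The 6 probes shared by several genes, all of them in the family, gave no call, against 16% of the features with several genes. Their differences ran from -0.13 to 0.25 log2 with adjusted p between 0.397 and 0.968 in limma, and after set centring from 0.08 to 0.32 log2, with adjusted p from 0.249 upwards. None of the 96 values of the 8 loci and none of the 72 values of the shared probes lay at the floor of the normalized values. Probes differ in their response, so levels were not compared between loci.

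The single genes most like AT5G55580 over the 12 samples, by Pearson's correlation of log2 levels among 647 genes, were FZL (0.947), AT3G15140 (0.945), AT5G59060 (0.943), AT2G36920 (0.942) and AT1G73470 (0.941). FZL encodes a dynamin-like protein of chloroplasts with a part in thylakoid organisation. All 5 were called higher in stn7, with differences between 0.61 and 1.06 log2, against 6.53% of all features. Their choice by likeness to a gene whose groups stood apart favours such calls. All 5 stood in sets with a median between 0.42 and 0.63 log2, and none passed after set centring (limma, adjusted p between 0.0890 and 0.534). After set centring the 5 most alike were AT1G65500 (0.896), the mTERF locus AT1G62010 (0.871), AT2G39100 (0.861), AT2G40980 (0.856) and FZL (0.846). Of these, AT1G65500 passed after set centring (0.72 log2, adjusted p = 0.0340 in limma), against 5.67% of all features. The others did not, with adjusted p between 0.0799 and 0.336. Only FZL was in both lists. These correlations hold the difference between the groups as well as the spread within them, and they share the arrays and their scaling. Among the other mTERF loci the correlation with AT5G55580 before centring ran from -0.76 (AT4G09620) to 0.45 (AT1G62010). After centring AT1G79220 reached 0.81, where it had been -0.38, and AT1G62150 was at -0.70.

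Of the genes of organellar gene expression around the mTERF family, few were found by the lists and search words used. The words could be matched only to symbols and synonyms. Measured genes of these kinds that are neither listed nor so named were therefore missed. None of 25 listed genes of plastid and mitochondrial transcription and none of 18 of organellar RNA processing was on a single-gene probe. Of 9 genes of the ribosome assembly and chaperonin list 2 were measured, both subunits of the plastid chaperonin, which folds proteins in the plastid. Neither passed. Cpn60beta4 (AT1G26230) differed by -0.07 log2 (95% interval -0.51 to 0.36, adjusted p = 0.825 in limma) and Cpn60beta3 (AT5G56500) by -0.17 log2 (95% interval -0.78 to 0.44, adjusted p = 0.691). Their deposited values overlapped between the groups, from 0.120 to 0.177 in WT and 0.0871 to 0.256 in stn7 for Cpn60beta4, and from 0.25 to 0.372 in WT and 0.210 to 0.446 in stn7 for Cpn60beta3. Both stood in sets with a positive median, and after set centring they were at -0.25 and -0.41 log2. Among symbols and synonyms, the words for pentatricopeptide repeat genes met only LAS (AT1G55580), a gene of shoot branching, through letters inside the word suppressor. This does not show that no such repeat gene was measured. LAS differed by 0.03 log2 (adjusted p = 0.954 in limma).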

How the data were processed

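The deposited table gave relative intensities on a linear scale, never below 0, for 3439 probes in 12 samples, of which 3437 had values. The authors' background correction, scaling and probe layout, and any depth or detection limit, were not given in the sources used here. Column medians lay between 0.297 and 0.414, and 4.66% to 6.58% of a sample's values were exactly 0.

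In the platform annotation 692 probes had 1 gene, 869 had several and 1876 had no entry. Of the 692, 690 were found in the RefSeq gene table of assembly TAIR10.1. Arrays were quantile-normalized, values under the 10th percentile (0.0702) were set to it, and log2 was taken. A further 188 probes never exceeded this floor and were dropped, and the 1 locus with several probes was averaged, which left 3248 features. Deviations from the group means correlated best between consecutive samples in all 12 cases (0.188 to 0.632, against at most 0.170 otherwise), and these samples were averaged. Features were fitted in R 4.3.3 with limma 3.58.1 (lmFit, eBayes), and two-sided p-values, after Benjamini-Hochberg adjustment over all features, were called under 0.05. Set centring subtracted, in each sample, the median deviation of each of 48 sets of 6 neighbouring probe numbers in a recurring cycle. Each of the 3 averaged WT samples correlated best with the same-numbered one of stn7, at 0.171, 0.120 and 0.0901. These were not all over 0.1, so no replicate block was used in the fit as reported, and a fit with the block is given below.

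Members, lists, tests and set centring were chosen with earlier results of these data known. The named genes are all mTERF members, the measured genes of the lists, and the 5 genes most correlated with AT5G55580 on each scale. The plan was to find members by gene description, which the tables do not hold, so the family list was written once the annotation was known. Figures used Python 3.11.15 and matplotlib 3.10.9.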

Additional observations from a re-analysis of the deposited data

Results flagged for a closer look

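In each group of 6 samples the highest and lowest normalized values of the 8 loci were checked for a gap to the others. Of these 16 groups of values chance would flag about 1 in 20 if all samples were independent. Consecutive samples had like deviations, so this rate may not hold. AT5G55580 had 1 stn7 sample far below the rest, sample 4, at -0.55 log2 against -0.16 to -0.03 in the other 5. It still lay above all WT samples, and without it the difference was 0.87 log2. AT1G62150 had stn7 sample 5 far below the rest, at -1.52 log2 against -1.06 to -0.81, and without it the difference was -0.43 log2.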

How the results depend on the processing

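Against 494 features called, 12 separate samples gave 1283, samples 2, 4 and 6 alone 308, set centring 184, and the sample with the mutant source name alone 8. Sets started at other numbers, chosen after the data had been seen like the fit by source name, gave 210, 200, 213, 210 and 208. The replicate block gave 407 and kept the call of AT5G55580 (adjusted p = 0.0319), and with set centring it gave 117. Without 1 sample or averaged pair the count lay between 4 and 493, set-centred fits included. Of the 8 mTERF genes, 1 passed as reported. With median centring 2 passed, where 480 of all features were called, and without the dimmest features 2 passed, where 512 were called. With 12 separate samples, which takes consecutive samples as independent, 3 passed, where 1283 features were called. With set centring from any start, or with block and set centring, 0 passed. Without 1 sample or averaged pair 0 to 1 passed.

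Signs turned only in genes that passed in none of these settings. AT1G61990 was at -0.033 log2 with median centring, -0.12 with samples 1, 3 and 5, -0.86 with the mutant source name, and -0.23 to 0.42 with samples left out. AT1G79220 was at 0.39 with set centring, with or without the block, 0.32, 0.34, 0.014 and 0.22 with 4 of the other starts, and -0.42 to 0.44 with samples left out. AT3G18870 was at -0.12 with median centring, -0.092 with set centring, with or without the block, -0.061, -0.079, -0.10, -0.078 and -0.095 with other starts, -0.12 with the mutant source name, and -0.20 to 0.18 with samples left out. The cause was not tested. A floor at the 5th percentile was 0 and was not run. Signal over background is not known.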

Other observations

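On chromosome 1 the listed loci AT1G61960, AT1G61970, AT1G61980 and AT1G61990 follow each other with 0 protein-coding genes between them, and 1 such gene lies between AT1G61990 and AT1G62010 in the RefSeq order. The 5 probes of this run, 2 with a single gene and 3 shared, are numbered 1484, 1496, 1514, 1526 and 1538. In all 5 the averaged samples 5 and 6 had the highest level of their group in both WT and stn7, by 0.22 to 0.52 log2 in WT and by 0.51 to 0.86 log2 in stn7. This order was seen in 18.4% of all features. After set centring it was seen in 4 of the 5, all but probe 1514, against 18.8% of features. On both scales the same order was also seen in shared probe 2165, which is not of this run. AT1G62150, also on chromosome 1, had its highest WT level but its lowest stn7 level in samples 5 and 6. The pattern was picked after the values had been seen and was not tested. The 5 probes of the run share annotated genes and lie close in number, so they are not separate observations.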
